A study of Rattus norvegicus with 30 samples.

Results

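The genes described here belong to steroid hormone metabolism: the steroid 17-hydroxylase Cyp17a1 and enzymes or carriers that work with it or on related hormones. The list held 8 genes (Cyp17a1, Srd5a1, Hsd11b1, Hsd17b2, Hsd17b11, Hsd17b13, Por and Serpina6), and members were chosen by gene symbol: a probe set counted where its only symbol in the platform annotation was a listed name. By that rule 7 of the 8 genes had a probe set, 8 probe sets of 31042 in all, and Srd5a1 was not analysed here. Por had 2 probe sets, and the brighter, selected on mean log2 signal over the 30 arrays, stands for the gene. The list itself was drawn up with results of these arrays in view, so the adjusted p-values below describe how each gene ranks within the fit and are no independent evidence that these genes respond.

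Primary hepatocytes of male Sprague Dawley rats, bought frozen, were plated on collagen under a Matrigel overlay and dosed on day 3 of culture. Clofibrate is a lipid-lowering fibrate and a ligand of PPAR-alpha, a nuclear receptor. Cultures received 60 uM clofibrate, 1000 uM clofibrate or the vehicle, 1% DMSO, and RNA was taken 24 or 48 h later. Each of the 6 groups held 5 cultures, 1 well and 1 array each. The labels name separate cultures and no animals, so the p-values measure the spread between cultures, which may share a cell lot.

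Cyp17a1 is a cytochrome P450 of the endoplasmic reticulum that adds a 17-alpha hydroxyl group to pregnenolone and progesterone and then cleaves the side chain to give androgens. It takes its electrons from NADPH through Por, the reductase that serves all microsomal P450s. Hsd11b1 regenerates active glucocorticoid inside hepatocytes, 17-beta-hydroxysteroid dehydrogenases such as Hsd17b2 interconvert active and weak sex steroids, and Serpina6, corticosteroid-binding globulin, carries glucocorticoid in plasma after secretion by the liver. Hsd17b11 and Hsd17b13 carry the same family name but are proteins of the lipid droplet surface.

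Hsd17b11 and Hsd17b13 lie next to each other on rat chromosome 14 in the RefSeq gene table (build GRCr8). Their upstream sequences are shown because both genes rose at the higher dose at 48 h. The RefSeq promoter table matched 4 of the 8 listed genes. The Hsd17b11 stretch lies at chr14:6016440-6016689 and the Hsd17b13 stretch at chr14:6056539-6056707, both on the plus strand. The Hsd17b13 stretch is 169 bases because it is cut before the first annotated base of the gene.
Hsd17b11: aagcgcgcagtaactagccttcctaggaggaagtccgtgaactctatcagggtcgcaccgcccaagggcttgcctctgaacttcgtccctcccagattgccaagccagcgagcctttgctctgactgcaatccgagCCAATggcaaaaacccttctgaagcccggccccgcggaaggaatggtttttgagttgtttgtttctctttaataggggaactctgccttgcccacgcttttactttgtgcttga
Hsd17b13: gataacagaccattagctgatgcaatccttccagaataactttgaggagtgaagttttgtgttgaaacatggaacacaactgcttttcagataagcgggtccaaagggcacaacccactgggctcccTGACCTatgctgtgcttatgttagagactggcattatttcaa
Capitals mark CCAAT in Hsd17b11 and TGACCT, the reverse complement of the nuclear receptor half-site AGGTCA, in Hsd17b13. The half-site was also in the window of Por, at -217 from its start, and Por passed in none of the comparisons. The motifs AGGTCA and CCAAT and the direct repeat of the half-site with 1 base between (AGGNCANAGGNCA) were searched on both strands. Of 33469 promoters in the table, 14.1% held the half-site, 34.0% held CCAAT and 0.368% held the direct repeat, which was in neither gene. The search covered the first 250 of the 300 bases of each table entry. Hsd17b13 also held CCAAT or its reverse complement in bases not printed. A match is a description of letters and not a binding site.

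Cyp17a1 rose with dose and with time on drug, and at 1000 uM it rose further than any other of the 7 genes. Its signal in the 5 DMSO cultures at 24 h was 443, 415, 345, 344 and 384. With 60 uM at 24 h it was 408, 535, 454, 496 and 636. With 1000 uM at 24 h it was 1373, 1385, 1386, 1612 and 1654. All 5 cultures at 1000 uM lay above every DMSO culture, while at 60 uM 4 of 5 did and the ranges overlapped. At 48 h the DMSO cultures gave 344, 383, 476, 432 and 380. The 60 uM cultures gave 889, 940, 1087, 1040 and 1037. The 1000 uM cultures gave 4299, 4524, 5645, 4437 and 4466. At 48 h no 2 of these groups overlapped.

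In the limma fit over 18625 probe sets, with Benjamini-Hochberg adjustment and an adjusted p under 0.05 counted as passing, Cyp17a1 was 3.85-fold higher at 1000 uM than in DMSO at 24 h (log2 change 1.94 ± 0.11 SE, n = 5 per group, adjusted p = 1.87e-15). At 48 h it was 11.6-fold higher (3.54 ± 0.11, adjusted p = 1.73e-22), a log2 change whose size ranked 9 among 10627 genes. The 60 uM change at 48 h was 2.49-fold (1.31, adjusted p = 1.81e-10). At 24 h the 60 uM change was 0.38 on the log2 scale (± 0.11, adjusted p = 0.0357). That last call ended when any of 6 arrays was left out: DMSO replicate 3 (adjusted p = 0.0950), 4 (0.101) or 5 (0.0593), or 60 uM replicate 2 (0.0887), 4 (0.0583) or 5 (0.138). It also ended without the filter on dim probe sets (0.0566) and with its own 2 groups fitted alone (0.255).

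The dose effect on Cyp17a1 differed between the times. The 60 uM effect was larger at 48 h than at 24 h by 0.93 ± 0.16 on the log2 scale (limma adjusted p = 0.00527), and the 1000 uM effect by 1.59 (adjusted p = 2.7e-08). The first of these lost its call with poly-A spike-in scaling (0.85, adjusted p = 0.138) and with the 4 groups fitted alone (adjusted p = 0.0830). In DMSO alone, Cyp17a1 at 48 h was 0.06 from its level at 24 h (95% confidence interval -0.17 to 0.29, adjusted p = 0.85). Its group means ran from 386 in DMSO at 24 h through 403, 506, 999 and 1482 to 4674, and the lowest 3 of these groups (both DMSO groups and 60 uM at 24 h) overlapped with their neighbours.

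**Figure D1:**
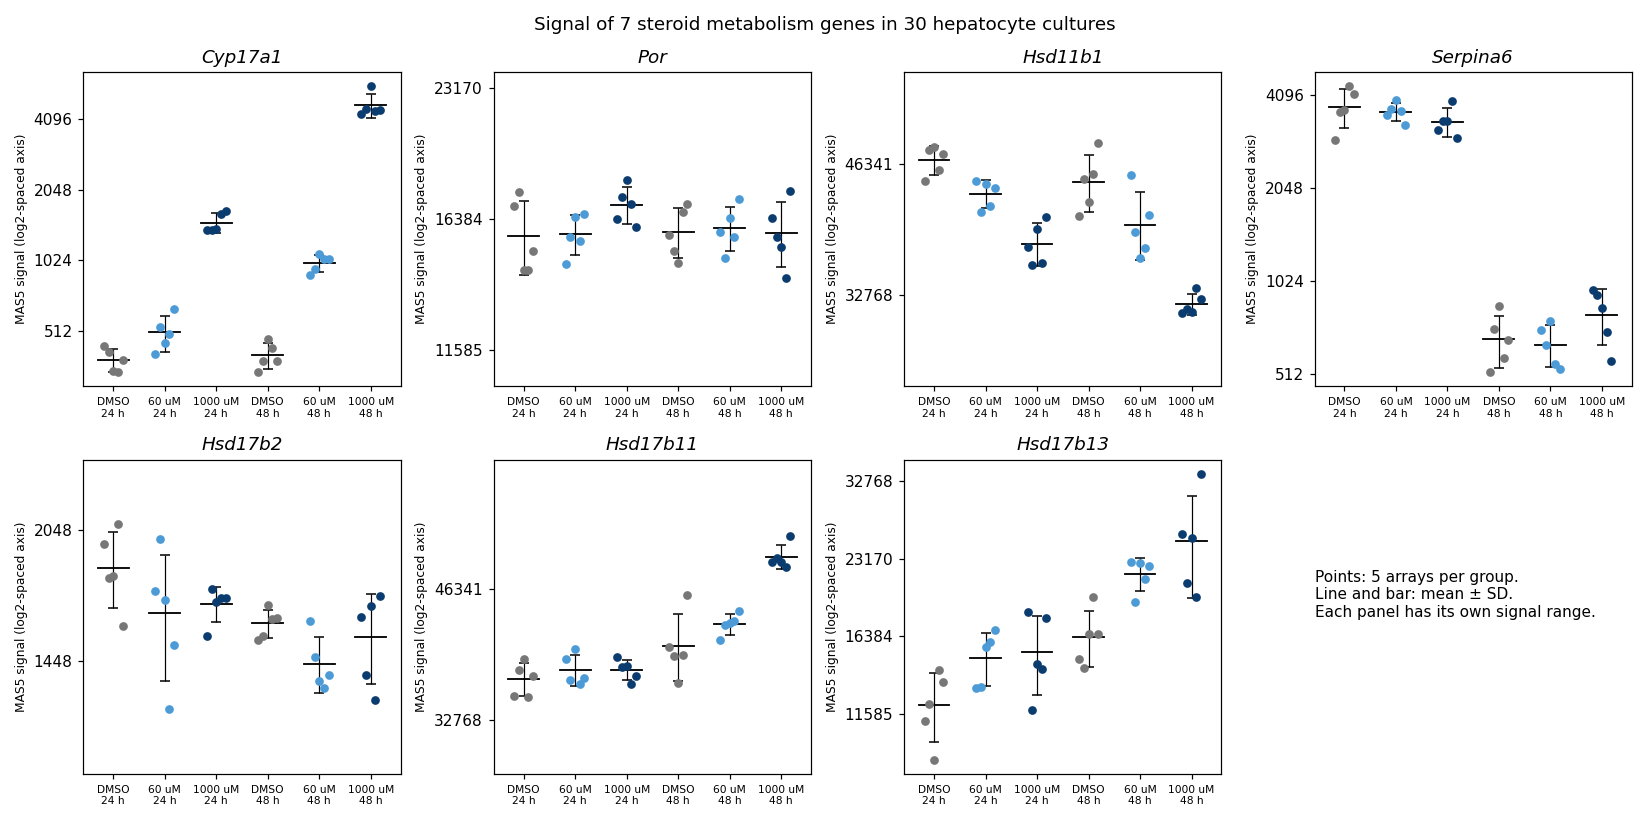
MAS5 signal on a log2-spaced axis of 7 genes in 6 groups of 5 cultures; points are arrays, lines and bars are the mean and SD. Cyp17a1 climbs from 386 to 4674 with dose and time, Serpina6 drops between 24 and 48 h in every treatment, and Por shows overlapping groups.

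Por, the electron donor of Cyp17a1, passed in none of the 9 comparisons. Its group means lay between 15658 and 17001. At 1000 uM and 48 h its log2 change was -0.005 (95% confidence interval -0.13 to 0.12, limma adjusted p = 0.964). For this probe set and scaling, a change beyond 0.13 in either direction lies outside that interval. With spike-in scaling the change there was 0.16 (limma adjusted p = 0.210). The dimmer probe set of Por, with group means between 8071 and 9048, passed in none either. Its 95% confidence interval at 1000 uM and 48 h was -0.12 to 0.20. At 1000 uM and 24 h the Por change was 0.12 (adjusted p = 0.142). It passed there with median centring (0.19, adjusted p = 0.0420), with spike-in scaling (0.35, adjusted p = 0.00441) and without DMSO replicate 2 (0.17, adjusted p = 0.0433).

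Hsd11b1 was lower at 1000 uM than in DMSO or at 60 uM. The 24 h cultures gave a signal of 44221, 48037, 48374, 45594 and 47472 in DMSO and 37148, 35399, 38989, 35596 and 40268 at 1000 uM. At 48 h it was 40314, 44474, 41817, 45033 and 48916 in DMSO and 31179, 31584, 31287, 33322 and 32348 at 1000 uM. At both times every 1000 uM culture lay below every DMSO culture and below every 60 uM culture. Against 60 uM the log2 change at 1000 uM was -0.19 at 24 h (limma adjusted p = 0.00596) and -0.30 at 48 h (adjusted p = 2.21e-05). Against DMSO the log2 change at 1000 uM was -0.32 ± 0.05 at 24 h (limma adjusted p = 6.16e-06) and -0.46 at 48 h (adjusted p = 4.23e-09). At 60 uM it was -0.13 at 24 h (adjusted p = 0.154) and -0.16 at 48 h (adjusted p = 0.0378).

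The 60 uM call on Hsd11b1 at 48 h ended without DMSO replicate 2 (adjusted p = 0.0724), 4 (0.0776) or 5 (0.141), without 60 uM replicate 2 (0.0786), 3 (0.132) or 4 (0.116), and under 5 other settings. Scaling to the poly-A spike-ins, which moved the median of all genes by 0.23 at 1000 uM and 24 h and by 0.16 at 48 h, reduced the 1000 uM change at 24 h to -0.09 (limma adjusted p = 0.422). It also ended the calls of 1000 uM against 60 uM, at 24 h (-0.09, adjusted p = 0.577) and at 48 h (-0.17, adjusted p = 0.152). The test of whether the 1000 uM effect on Hsd11b1 differed between times did not pass (-0.14, adjusted p = 0.262), but it passed with quantile normalization (-0.24, adjusted p = 0.000606).

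Serpina6 moved with time in culture. In DMSO its signal was 2945, 3633, 3670, 4389 and 4147 at 24 h and 521, 716, 852, 577 and 660 at 48 h, with no overlap. It was 5.68-fold lower at 48 h (log2 change -2.51 ± 0.13, limma adjusted p = 3.8e-15), and by size this ranked 1 among 10627 genes. The same difference between times was -2.52 at 60 uM and -2.09 at 1000 uM. Against DMSO of the same time, Serpina6 passed at neither dose. The group at 1000 uM and 48 h (963, 927, 839, 704 and 566) overlapped with DMSO (0.26, 95% confidence interval -0.01 to 0.53, adjusted p = 0.132). That change passed without DMSO replicate 3 (0.35, adjusted p = 0.0393), without 1000 uM replicate 5 (0.38, adjusted p = 0.0210) and with spike-in scaling (0.42, adjusted p = 0.0202).

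**Figure D2:**
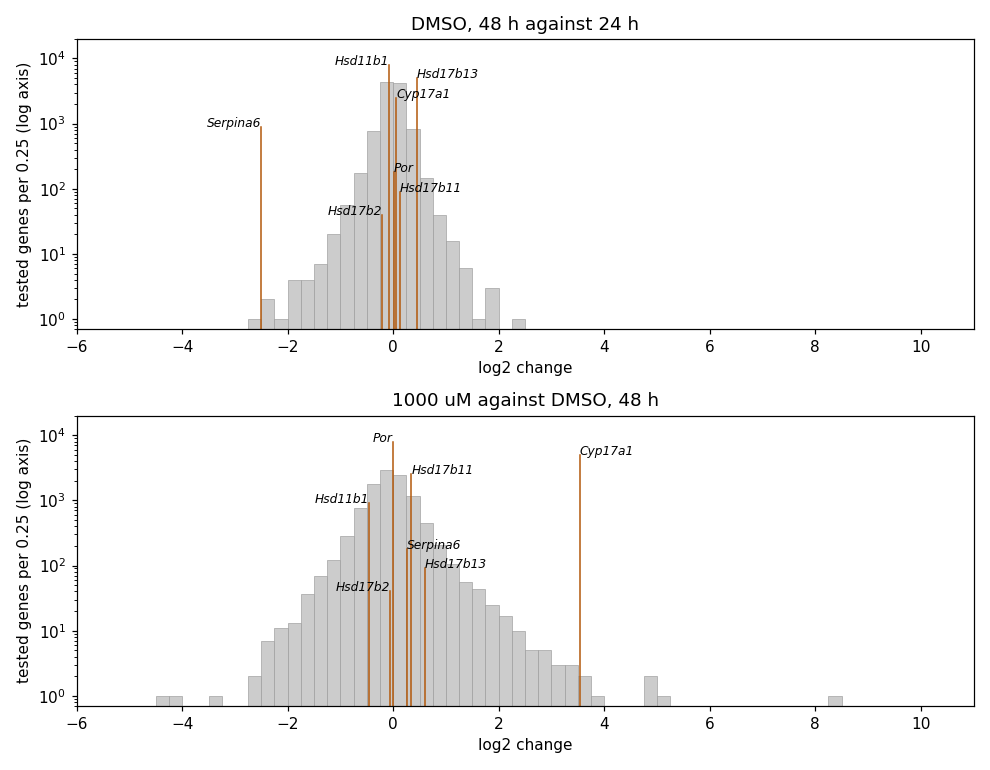
Number of tested genes (log axis) by log2 change, in bins 0.25 wide, for 48 h against 24 h in DMSO (top) and 1000 uM against DMSO at 48 h (bottom); lines mark the 7 genes. Serpina6 stands at the lower edge of the top panel at -2.51 and Cyp17a1 in the upper tail of the bottom panel at 3.54.

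Of the 17-beta-hydroxysteroid dehydrogenases, Hsd17b11 rose at 1000 uM at 48 h. Its signal there was 49806, 50295, 49876, 49210 and 53298, above all DMSO cultures of that time (39769, 38876, 36208, 38946 and 45651). The log2 change was 0.34 ± 0.04 (limma adjusted p = 6.75e-08). At 24 h it was 0.04 (adjusted p = 0.586), but 0.26 with spike-in scaling, which passed (adjusted p = 0.0111). The effect differed between the times by 0.31 ± 0.06 (adjusted p = 0.000918), a call that ended with median centring (0.25, adjusted p = 0.0768) and with spike-in scaling (0.24, adjusted p = 0.320). In DMSO alone Hsd17b11 was 0.12 higher at 48 h than at 24 h, which did not pass (limma adjusted p = 0.0803). That change over time passed with quantile normalization (0.16, adjusted p = 0.00207) and with spike-in scaling (0.28, adjusted p = 0.0228). It also passed without DMSO replicate 3 at 48 h (0.16, adjusted p = 0.0203).

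Hsd17b13 rose with drug and with time. Its signal at 48 h was 14825, 14240, 16543, 19499 and 16570 in DMSO and 25908, 20802, 25400, 19567 and 33901 at 1000 uM, and these ranges did not overlap. The log2 change there was 0.60 ± 0.12 (limma adjusted p = 0.000193), and this call held under each alternative and each left-out array. At 60 uM and 48 h it was 0.41 (adjusted p = 0.0296) and at 1000 uM and 24 h 0.34 (adjusted p = 0.0381). In DMSO it was 0.45 higher at 48 h than at 24 h (adjusted p = 0.0232).

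These 3 smaller calls on Hsd17b13 each ended when certain single arrays were left out. The 60 uM call ended without DMSO replicate 1 (adjusted p = 0.0806) or 2 (0.0889) or without 60 uM replicate 1 (0.0675), 3 (0.0658) or 5 (0.0612). The call at 1000 uM and 24 h ended without DMSO replicate 1 (0.0795), 2 (0.0555) or 3 (0.142) or without 1000 uM replicate 1 (0.125) or 5 (0.117). The call on time in DMSO ended without the 24 h replicate 1 (0.0520) or 3 (0.0909) or the 48 h replicate 4 (0.0791). Processing choices ended calls too. The call at 1000 uM and 24 h ended without the filter (0.0637), with quantile normalization (0.126), with no intensity trend (0.0642) and with array weights (0.0553). The 60 uM call at 48 h ended without the filter (0.0521), with median centring (0.0686), quantile normalization (0.0509) or spike-in scaling (0.0556) and with no intensity trend (0.0601). At 60 uM and 24 h the change was 0.31 (limma adjusted p = 0.155).

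Hsd17b2, which oxidises estradiol and testosterone to weaker steroids, passed in none of the 9 comparisons. Its group means lay between 1436 and 1851. At 1000 uM and 48 h its change was -0.06 (95% confidence interval -0.25 to 0.13, limma adjusted p = 0.674).

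**Figure D3:**
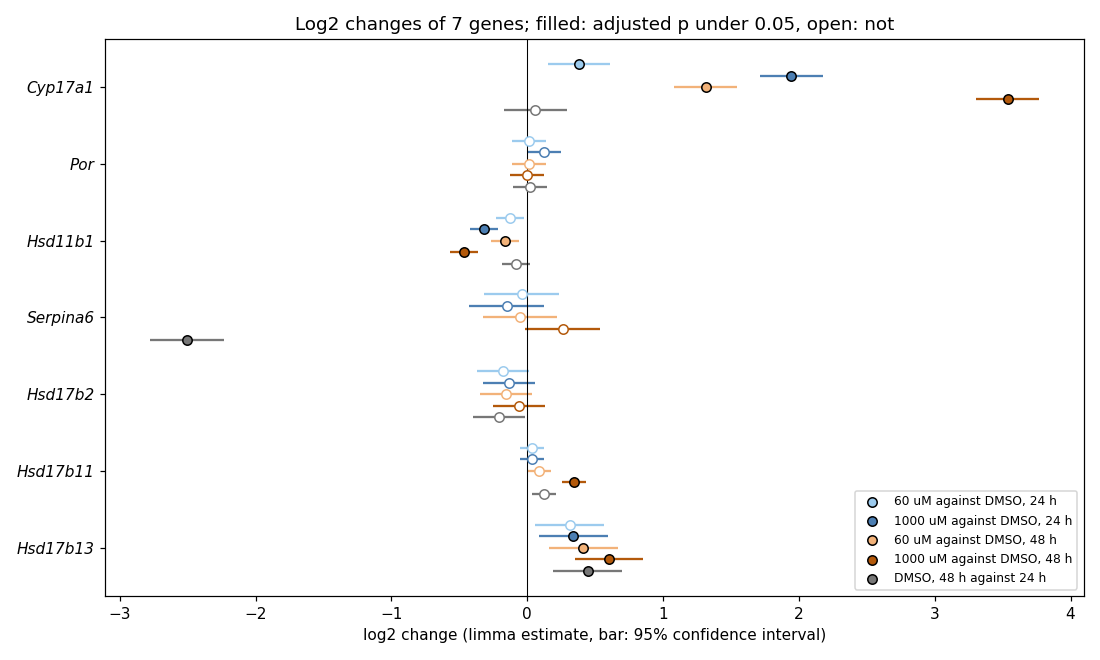
Log2 change with 95% confidence interval of 7 genes in 5 comparisons; filled points have an adjusted p under 0.05. Cyp17a1 lies to the right in all 4 dose comparisons, Hsd11b1 to the left, and Serpina6 moves in the comparison of times alone among the 5 shown.

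The members called are set here beside all 10627 genes tested. At 60 uM and 24 h 1 of the 7 genes passed, Cyp17a1, where 4.55% of all genes were called higher and 3.76% lower. At 1000 uM and 24 h 2 rose and 1 fell, where 13.4% of genes were called higher and 20.5% lower. At 60 uM and 48 h 2 rose and 1 fell, against 5.70% and 5.79%. At 1000 uM and 48 h 3 rose and 1 fell, against 17.1% and 26.8%. Between the doses 2 members differed at 24 h and 3 at 48 h, where 21.6% and 30.5% of genes were called. With time in DMSO 1 rose and 1 fell, against 5.10% and 3.75%. The 60 uM effect differed between times for 1 member, against 0.151% of genes, and the 1000 uM effect for 2, against 10.8%.

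The genes whose 6 group means, each centred on its own mean, lay closest to those of Cyp17a1 were Aqp7, Sult1c3, Cd300a, Fabp1 and Cacna2d3. The root mean square difference was 0.26 for Aqp7, a glycerol channel, and 0.35 for Cacna2d3, among 10514 genes. Cd300a was dim: its mean in DMSO was 211 at 24 h and 170 at 48 h. At 60 uM it was 164 and 236, also under the filter signal of 255, and at 1000 uM 493 and 1181. Cd300a thus passed the filter only through its 1000 uM arrays. The 60 uM change of Cd300a at 24 h was -0.23, opposite in sign to that of Cyp17a1. Fabp1, the fatty acid binding protein of liver and a known PPAR-alpha target, was 3.43 higher at 1000 uM and 48 h on the log2 scale. Closest to Serpina6 were Cyp2c13 (0.23), Serpina3c (0.24) and Gstp3 (0.31). Among the 7 genes themselves the closest pair was Hsd17b2 and Por (0.12). Both profiles were flat, with group means spanning 0.36 for Hsd17b2 and 0.12 for Por on the log2 scale. Likeness here is over 6 group means of the same 30 arrays.

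**Figure D4:**
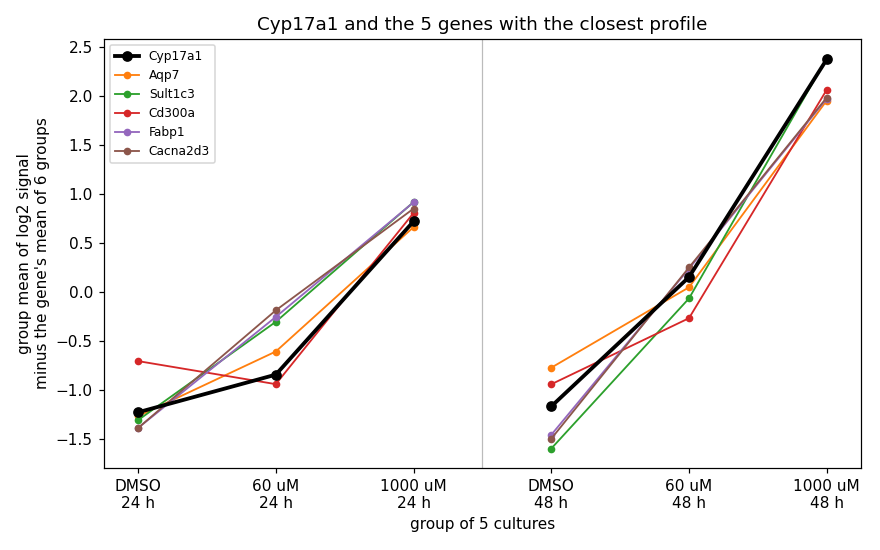
Group mean of log2 signal minus the gene's mean of 6 groups, for Cyp17a1 (black) and the 5 genes with the closest profile. Cyp17a1 runs from -1.23 in DMSO at 24 h to 2.37 at 1000 uM and 48 h, and the other 5 genes also peak there. The 5 genes were chosen for likeness over these same 6 group means, so the shared peak follows from the choice.

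Among the neighbours of these genes in the GRCr8 gene table, those beside Cyp17a1 did not rise with it. At 1000 uM and 24 h both were lower, Wbp1l at -0.27 (limma adjusted p = 2.06e-05) and Borcs7 at -0.32 (adjusted p = 0.00485). At 1000 uM and 48 h Wbp1l was at -0.10 (limma adjusted p = 0.102) and Borcs7 at -0.02 (adjusted p = 0.889). Beside Hsd11b1, G0s2, an inhibitor of triglyceride lipase, rose by 1.69 (adjusted p = 6.47e-18). Beside Por, Tmem120a rose by 1.79 (adjusted p = 1.23e-22). Beside Serpina6, Serpina10 fell by 0.81 on the log2 scale (adjusted p = 4.98e-18).

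Other genes of the pathway were taken from lists and are given for 1000 uM against DMSO at 48 h unless said, where the median of all genes tested was -0.06 and 17.1% of them were called higher and 26.8% lower. Each count below is to be read beside those shares. Of 7 tested genes of steroid synthesis and transport 1 rose, Hsd3b5 (0.57, limma adjusted p = 0.00245), and 1 fell, Stard4 (-0.30, adjusted p = 0.0226), with a list median of -0.12. Of 7 electron donors and cofactor suppliers 2 rose and 2 fell, with a median of 0.03. Pgrmc2, a haem-binding partner of P450s, rose by 1.52 (adjusted p = 1.03e-24). Fdx1, the mitochondrial ferredoxin, rose by 0.60 at 24 h (adjusted p = 3.21e-11). H6pd, which supplies NADPH to Hsd11b1, fell by 0.35 at 24 h (adjusted p = 2.68e-05).

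Of 21 steroid reductases and dehydrogenases 8 rose and 7 fell, beside 17.1% and 26.8% of all genes, with a median of 0.21. The largest rises were in Hsdl2 (1.59), Hsd17b4 (1.38), Hsd17b12 (1.22) and Hsd17b6 (1.14). Hsd17b4 is the peroxisomal multifunctional enzyme of fatty acid beta-oxidation and Hsd17b12 acts in fatty acid elongation, so members of this list also work on lipids. Of 13 steroid-hydroxylating P450s 6 rose and 4 fell, with a median of 0.07. Cyp2c11, the male-specific androgen hydroxylase, fell by 1.73, and Cyp3a2 was higher than in DMSO by 1.42. The mean signal of Cyp3a2 at 24 h was 6565 in DMSO and 6593 at 1000 uM. At 48 h it was 2276 in DMSO and 5946 at 1000 uM, so the DMSO level had fallen and the 1000 uM level was not above that of 24 h. In DMSO, 7 of these 13 fell from 24 to 48 h and 1 rose (median -0.39), where 3.75% of all genes were called lower and 5.10% higher. Those that fell included Cyp2c13 (-2.29), Cyp3a2 (-1.55) and Cyp2c12 (-1.21).

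Of 9 conjugation genes 3 rose and 3 fell, with a median of 0.11. Ugt2b1, a glucuronosyltransferase, fell by 1.77 (limma adjusted p = 1.8e-18). Of 8 receptors, carriers and chaperones 1 rose and 5 fell, beside the same 17.1% and 26.8% of all genes, with a median of -0.20. Shbg, the plasma carrier of sex steroids, rose by 0.86 (adjusted p = 2.96e-05), and Fkbp5, a co-chaperone of the glucocorticoid receptor, fell by 0.83. The glucocorticoid receptor gene, Nr3c1, fell by 0.46 at 24 h (adjusted p = 9.16e-09).

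Of 16 glucocorticoid receptor target genes 4 rose and 8 fell, beside 17.1% and 26.8% of all genes, with a median of -0.32. Tat, tyrosine aminotransferase and also on the list of hepatocyte markers, fell by 1.31 (limma adjusted p = 6.75e-15). Pck1 rose by 2.42 and Angptl4 by 2.05 at 24 h, and Angptl4 is also a known PPAR-alpha target. Of 20 regulators of steroid gene transcription 6 rose and 2 fell, with a median of -0.02. Nr1h4, the bile acid receptor FXR, rose by 1.22 at 24 h, and Ppargc1a, a coactivator, fell by 0.77.

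**Figure D5:**
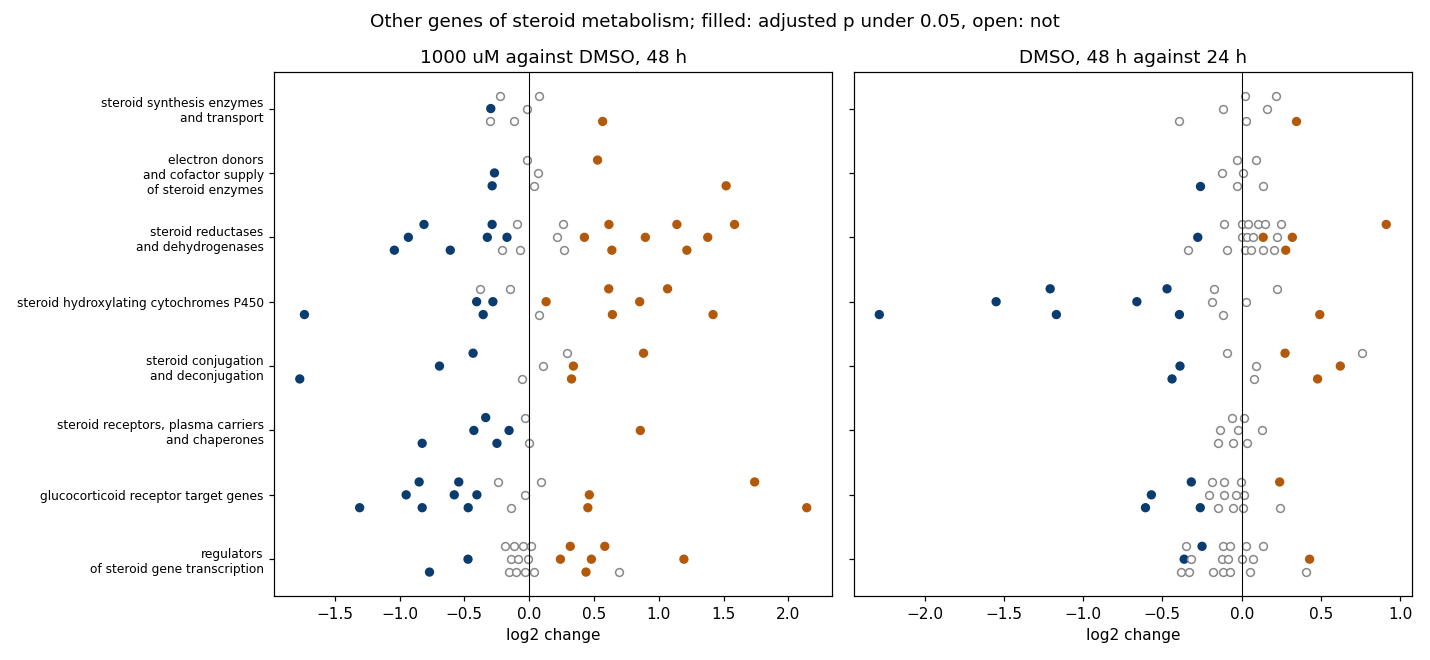
Log2 change of each tested gene of 8 lists, for 1000 uM against DMSO at 48 h (left) and 48 h against 24 h in DMSO (right); filled points have an adjusted p under 0.05. Reductases and dehydrogenases hold 8 that rose and 7 that fell on the left, and 7 of 13 P450s fell on the right.

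All 12 hepatocyte markers on the array lay above the floor in every group, the floor being the highest group mean of 3 bacterial control probe sets. Of the 12, 10 fell at 1000 uM and 24 h and none rose (list median -0.20), where 20.5% of all genes were called lower. At 48 h 6 fell and 1 rose, where 26.8% were called lower. Hsd11b1 was lower in both comparisons, and the part of this in its change was not tested. Scaling to the poly-A spike-ins raises the change of every gene by 0.23 at 1000 uM and 24 h and by 0.16 at 48 h. The marker counts were not taken again under that scaling. The summed signal of 10 Kupffer cell markers lay between 27884 and 29794 in DMSO at 24 h, between 23655 and 27507 in DMSO at 48 h, and between 21745 and 23201 at 1000 uM and 48 h. Bright markers weigh most in this sum, such as Cd14 (14662 in DMSO at 48 h). Of 8 tested Kupffer markers 2 fell at 1000 uM and 48 h and none rose (list median 0.05), where 26.8% of all genes were called lower. In DMSO 3 of the 8 fell from 24 to 48 h and none rose (median -0.53), where 3.75% were called lower. Adgre1, a macrophage surface marker, lay under the floor in 4 of the 6 groups. The floor was set for each group and ran from a signal of 22 at 1000 uM and 24 h to 79 at 1000 uM and 48 h. A place above or under it is therefore no comparison of the marker between groups. The marker sum's part in the fall of Serpina6 or Hsd11b1 was not tested, and in these cultures fewer cells of a type and less RNA per cell cannot be told apart. Of 13 PPAR-alpha target genes, a check of the treatment, 12 rose at 1000 uM and 48 h. Arrays of 1 group correlated at 0.964 to 0.979, and DMSO replicate 1 at 48 h stood apart, with a residual SD of 0.336 against 0.243 to 0.297 in the others. Without that array 1 of the 21 calls on the 7 genes ended, that on Hsd17b13 at 60 uM and 48 h.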

How the data were processed

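Biotin-labelled RNA of 30 hepatocyte cultures was hybridised to Affymetrix rat arrays. The authors deposited 1 linear intensity value (MAS5 signal, per the submitters' processing notes) for each probe set and array. The MAS5 version and scaling target: not given in the sources used here. The trimmed mean of every array was 1501, so a change in total RNA is hidden. The members and lists were chosen with earlier results of these data known.

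The log2 of each signal was taken without adding a constant. A filter on dim probe sets at the 40th percentile of their mean (a signal of 255) kept 18625 of 31042. All 30 arrays entered 1 limma fit (limma 3.58.1, R 4.3.3) with a mean per group, an intensity trend and Benjamini-Hochberg adjustment, and 9 comparisons. The fit was tested on simulated data, against a criterion that was revised after a first version was missed, with the fit unchanged. Of all probe sets 20826 had 1 gene symbol, 436 several and 9780 none. Genes were counted by their brightest probe set, 10627 tested of 14217. Named genes are the members, genes from the lists and the genes with the closest profile. From each list up to 4 genes with the largest change among those passing were eligible, and not all of these are named. Cyp2c13 and Cyp2c12 and the neighbours were chosen after their values were seen. Alternatives were other filters, scalings and variance models, a constant of 64, the other Por probe set and each array left out. The serial numbers in the sample titles run in 5 sets of 6, with 1 array of each group in a set. The labels do not say what a set shares, so the main fit has no block, and a fit with the sets as a block was added after the data were seen.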

Additional observations from a re-analysis of the deposited data

Results flagged for a closer look

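Of 42 pairs of gene and group examined, 3 held 1 array far from the other 4, and chance flags about 1 in 20 such groups. Cyp17a1 was 5645 in replicate 3 at 1000 uM and 48 h. Hsd17b2 was 1546 in replicate 1 at 1000 uM and 24 h. Hsd17b11 was 53298 in replicate 5 at 1000 uM and 48 h. The drug effect differed between 24 and 48 h, by the test of the difference itself, for Cyp17a1 at 60 uM (0.93 on the log2 scale) and at 1000 uM (1.59), and for Hsd17b11 at 1000 uM (0.31).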

How the results depend on the processing

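Of 21 called member results under 40 settings, 792 outcomes kept direction and call, 48 lost the call and 0 reversed. Of 42 that were not called, 1594 outcomes were alike, 18 gained a call and 77 changed sign, and these include 1 more setting, the other probe set, for the 9 results of Por. The number of members called at 60 uM and 24 h was 0 without the filter and with the groups fitted alone, 2 with quantile normalization, and 0 to 1 with an array left out. At 60 uM and 48 h it was 1 without the filter, with median centring, with spike-in scaling and with no intensity trend, and 1 to 3 with an array left out. Spike-in scaling gave 1 between the doses at 24 h. In DMSO over time leaving out an array gave 1 to 3. For the difference of the 60 uM effect, spike-in scaling and the groups alone gave 0. For that of 1000 uM, median centring and spike-in scaling gave 1.

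The sign changes were all of results that were not called. Median centring and spike-in scaling shift every gene of an array by 1 amount (for spike-ins 0.23 at 1000 uM and 24 h), so the sign changes under them follow from that construction. The cause of the others was not tested. Quantile normalization gave -0.017 for Por (60 uM over DMSO, 24 h), -0.0077 for Por (60 uM over DMSO, 48 h), 0.014 for Hsd17b2 (1000 uM over DMSO, 48 h), -0.016 for Hsd17b11 (1000 uM over 60 uM, 24 h) and -0.012 for Hsd17b13 (1000 uM over 60 uM, 24 h). Median centring gave 0.013 for Serpina6 (60 uM over DMSO, 24 h), -0.0087 for Por (60 uM over DMSO, 48 h), 0.0030 for Por (1000 uM over DMSO, 48 h), 0.012 for Por (1000 uM over 60 uM, 48 h), -0.055 for Hsd17b2 (the difference of the 60 uM effect), -0.026 for Hsd17b11 (the difference of the 60 uM effect) and -0.074 for Por (the difference of the 60 uM effect). Poly-A spike-in scaling gave 0.081 for Serpina6 (60 uM over DMSO, 24 h), 0.093 for Hsd17b2 (1000 uM over DMSO, 24 h), 0.074 for Serpina6 (1000 uM over DMSO, 24 h), 0.10 for Hsd17b2 (1000 uM over DMSO, 48 h), 0.16 for Por (1000 uM over DMSO, 48 h), 0.11 for Por (1000 uM over 60 uM, 48 h), 0.068 for Hsd11b1 (DMSO, 48 h over 24 h), -0.063 for Hsd17b2 (the difference of the 60 uM effect), -0.035 for Hsd17b11 (the difference of the 60 uM effect) and -0.083 for Por (the difference of the 60 uM effect). The other probe set gave 0.042 for Por (1000 uM over DMSO, 48 h). With 1 array left out the values ran from -0.019 to 0.055 for Por (60 uM over DMSO, 24 h), -0.13 to 0.018 for Serpina6 (60 uM over DMSO, 24 h), -0.013 to 0.043 for Por (60 uM over DMSO, 48 h), -0.13 to 0.043 for Serpina6 (60 uM over DMSO, 48 h), -0.10 to 0.00025 for Hsd17b2 (1000 uM over DMSO, 48 h), -0.046 to 0.037 for Por (1000 uM over DMSO, 48 h), -0.042 to 0.12 for Hsd17b2 (1000 uM over 60 uM, 24 h), -0.012 to 0.021 for Hsd17b11 (1000 uM over 60 uM, 24 h). They ran from -0.041 to 0.12 for Hsd17b13 (1000 uM over 60 uM, 24 h), -0.062 to 0.022 for Por (1000 uM over 60 uM, 48 h), -0.0017 to 0.12 for Cyp17a1 (DMSO, 48 h over 24 h), -0.013 to 0.062 for Por (DMSO, 48 h over 24 h), -0.084 to 0.0028 for Hsd11b1 (the difference of the 60 uM effect), -0.065 to 0.10 for Hsd17b2 (the difference of the 60 uM effect), -0.040 to 0.035 for Por (the difference of the 60 uM effect), -0.093 to 0.084 for Serpina6 (the difference of the 60 uM effect).

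With 5 arrays a group the precision is limited by their number. The labels give the title sets of 6 arrays only a number, and what else a set shares is not known. Of 75 pairs of arrays of the same set 1 deviated together with a correlation over 0.1 (range -0.051 to 0.11, median 0.0056). With 5 sets to choose from, 11 of 30 arrays lay closest to their own set. The actin 3'/5' ratio, a measure of RNA integrity, averaged 2.56 and 2.54 in sets 1 and 2. In sets 3, 4 and 5 it averaged 2.36, 2.34 and 2.33. By group the actin ratio averaged 2.42 in DMSO, 2.42 at 60 uM and 2.56 at 1000 uM at 24 h. At 48 h these averages were 2.33, 2.33 and 2.48. The ranges of the 1000 uM and DMSO arrays overlapped at both times. The part of this difference in the 1000 uM calls was not tested. With the sets as a replicate block, added after seeing the data, no call on the members changed. The genes called were 1.01 to 1.31 times those without the block (21 against 16 for the difference of the 60 uM effect).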
